A study of Mus musculus with 6 samples.

Results

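Cathepsins are a group of proteases of the lysosome, and 10 of their genes, Ctsa, Ctsb, Ctsc, Ctsd, Ctsf, Ctsh, Ctsk, Ctsl, Ctss and Ctsz, were followed here in the adipocyte fraction of epididymal fat. The genes were chosen by name out of 35122 genes in the table, and all 10 were among the 13925 genes left after a filter on low counts. RNA from each of 3 control and 3 aPU.1KO mice was sequenced as a library of its own, to ask what changes in fat cells that lose the transcription factor PU.1, which is encoded by Spi1. All were male C57BL/6 mice on chow. The labels give their age as 10 to 11 months, and the study describes the sequenced mice as more than 1 year old. Control mice had the genotype PU.1 fl/fl, so that both copies of Spi1 carried loxP sites around 1 exon but still held it. The aPU.1KO mice, AdipoqCre PU.1 fl/fl, carried the same alleles and a Cre recombinase driven by the adiponectin promoter, which is active in adipocytes. The fraction was the floating layer of collagenase-digested fat pads, and it can still hold other cells of the tissue, in which this Cre is not expected to act.

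Cathepsins are made as inactive precursors, carried to the lysosome on the mannose 6-phosphate receptors and cut to their active form in its acid interior. Most are papain-like cysteine proteases, while Ctsd encodes an aspartic protease and Ctsa a serine carboxypeptidase that also protects the sialidase Neu1. Ctsb, Ctsd and Ctsl are expressed in nearly all cells and digest bulk protein. Ctss is best known from antigen-presenting cells, where it trims the invariant chain Cd74 from class II molecules, and Ctsk from osteoclasts, where it cleaves collagen. PU.1 itself is a master regulator of macrophages, which are rich in lysosomes and abundant in the fat of older mice.

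The coding stretches around the catalytic cysteine are shown for 7 papain-like members, because they are what these genes have in common and what sets Ctsa and Ctsd apart. They are mouse sequences from the GENCODE M21 transcripts of GRCm38, each 33 bases long, written 5′ to 3′ with the codon of that cysteine in capitals.
Ctsb: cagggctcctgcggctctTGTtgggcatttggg
Ctsl: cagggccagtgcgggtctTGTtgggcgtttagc
Ctsk: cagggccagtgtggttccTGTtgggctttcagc
Ctss: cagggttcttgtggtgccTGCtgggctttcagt
Ctsh: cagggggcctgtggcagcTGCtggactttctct
Ctsz: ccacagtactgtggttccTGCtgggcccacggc
Ctsc: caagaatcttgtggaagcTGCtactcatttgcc
Ctsk and Ctsl shared 28 of these 33 bases, the most of any pair shown, and Ctsc and Ctsl shared 15, the fewest. Ctsk and Ctss, which moved furthest between the groups, shared 26. No member had a run of 31 bases in its longest protein-coding transcript that occurred in a transcript of another member.

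Mouse 2 of each group stood apart from the other mice of its group. The chi-square per degree of freedom between the counts of 2 libraries was 47.1 and 73.6 for the pairs with control mouse 2 and 19.0 for the other control pair, and 55.9 and 89.7 for the pairs with aPU.1KO mouse 2 and 22.9 for the other aPU.1KO pair. The fold change of each cathepsin is therefore also given without either of them. Total counts were between 20550252 and 24310144 in 5 libraries and 69283842 in control mouse 1, so that counts of that mouse are the most precise. Levels are CPM, a gene's counts scaled to a fixed library total after TMM normalization. Spi1 (chromosome 2, 91082390 to 91115756 in GRCm38, as are all positions here) was at 24.3, 6.35 and 26.7 CPM in control mice 1, 2 and 3 and at 3.20, 1.22 and 4.17 CPM in aPU.1KO mice 1, 2 and 3. Its log2 fold change (aPU.1KO over control) was -2.75 (edgeR adjusted p = 0.0788), and -3.17 without control mouse 2 (adjusted p = 0.0123, and 0.0949 to 0.313 without any other mouse). Counts are per gene, so reads from the exons of Spi1 that Cre leaves in place are included. The summed level of 15 macrophage markers, among them Adgre1, Csf1r, Cd68 and Ptprc, was 528 CPM in control mouse 2, against 1660 and 1598 in the other controls and 280 to 364 in the aPU.1KO mice. By edgeR's quasi-likelihood test 12 of the 15 passed an adjusted p of 0.1, all lower in aPU.1KO (6.15% of all genes), and the macrophage marker Adgre1 was at 129, 26.2 and 115 CPM against 21.3, 7.96 and 15.7 CPM. Of the 15, 13 were lower in control mouse 2 than in the other controls. The exceptions, Cd163 and Mertk, were highest in control mouse 2 among the controls and had log2 fold changes of 0.29 and 0.056 (edgeR adjusted p = 0.804 and 0.862). The adipocyte markers Adipoq and Plin1 were abundant in all 6 libraries, with Adipoq at 2448 to 2847 CPM in control and at 3359 to 3943 CPM in aPU.1KO mice. In bulk RNA, fewer cells of a type and less RNA per cell cannot be told apart.

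Ctss and Ctsk were the cathepsins that differed most between the genotypes. Both were several-fold lower in aPU.1KO mice, and the other 8 members differed by less than a doubling in either direction. No member passed an adjusted p of 0.05 in edgeR's quasi-likelihood test, where 0.237% of all genes tested did. At an adjusted p under 0.1, Ctss and Ctsk passed, 2 of 10 members, against 9.24% of all genes in either direction and 6.15% lower in aPU.1KO. At an unadjusted p under 0.05, 4 members passed (Ctsa, Ctsh, Ctsk and Ctss), all lower in aPU.1KO, against 13.7% of all genes. DESeq2, the test named in the study's methods, called 2 members at an adjusted p under 0.05 (Ctsk and Ctss, against 7.48% of all genes lower by that test), limma-voom called 0 (against 0.330%), and edgeR without control mouse 2 called 4 (Ctsa, Ctsh, Ctsk and Ctss, against 6.93% lower). The fold change pointed down in 9 of the 10, against 48.0% of all genes, with a median log2 fold change (aPU.1KO over control) of -0.39 over the members and 0.014 over all genes. Without Ctsk and Ctss the median of the other 8 was -0.36.

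**Figure D1:**
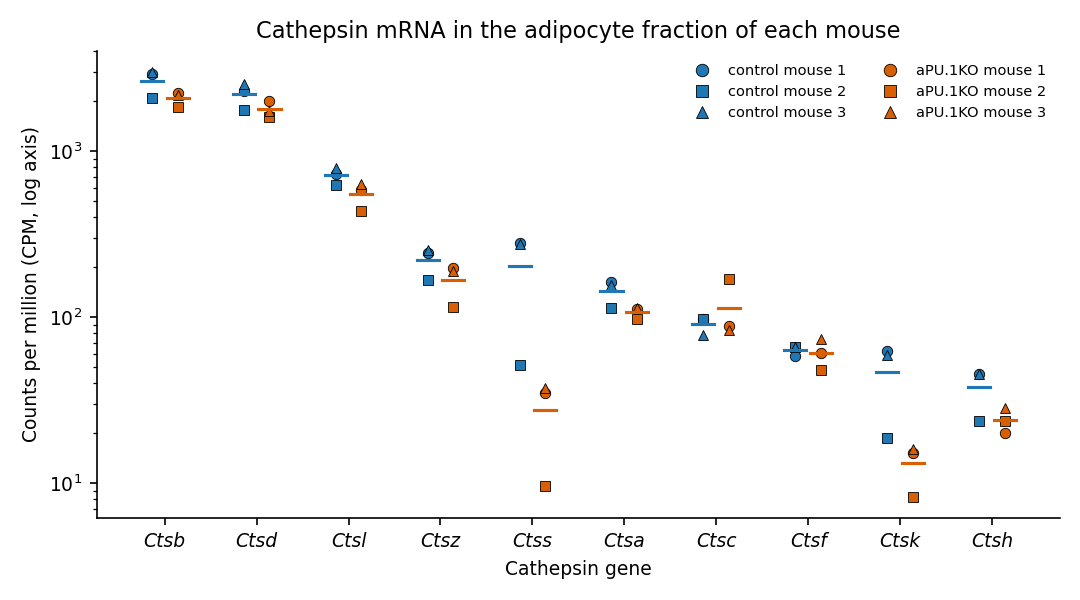
Level of each cathepsin in each mouse, in CPM on a log axis, with 1 point per library (blue, control; orange, aPU.1KO; the symbol gives the mouse number) and a bar at each group's mean. All 3 aPU.1KO mice lie below all 3 control mice for Ctss, Ctsk and Ctsa, and control mouse 2 is the lowest control for 8 of the 10 genes.

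Ctss (ENSMUSG00000038642, chromosome 3, 95526786 to 95556403) encodes cathepsin S, an endopeptidase that stays active near neutral pH. It was at 279.7, 51.3 and 275 CPM in control mice 1, 2 and 3, and at 35.1, 9.58 and 37.7 CPM in aPU.1KO mice 1, 2 and 3. The groups did not overlap, but control mouse 2 lay closer to the aPU.1KO mice than to the other controls, and aPU.1KO mouse 2 was the lowest of all. The mean was 202 ± 130.5 CPM (SD, n = 3) in control and 27.5 ± 15.5 CPM (SD, n = 3) in aPU.1KO, a 7.37-fold lower fitted level. On the log2 scale this was -2.88 with a standard error of 0.75 and a 95% interval from -4.68 to -1.09 (edgeR adjusted p = 0.0911). With DESeq2 its adjusted p was 0.0141. Without control mouse 2 the edgeR log2 fold change was -3.35 (adjusted p = 0.0201), and without aPU.1KO mouse 2 it was -2.48 (adjusted p = 0.142). Leaving out any mouse but control mouse 2 gave adjusted p between 0.116 and 0.338.

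Ctsk (ENSMUSG00000028111, chromosome 3, 95499256 to 95509362) encodes the collagen-cleaving cathepsin K and lies 17423 bases from Ctss on the same strand. Its levels were 62.4, 18.7 and 59.2 CPM in the control mice and 15.1, 8.32 and 16.1 CPM in aPU.1KO mice 1, 2 and 3. The groups did not overlap, yet the gap between control mouse 2 and the highest aPU.1KO mouse was small beside the gap to the other controls. The fitted level was 3.56-fold lower, or -1.83 on the log2 scale with a standard error of 0.48 (adjusted p = 0.0909 by edgeR and 0.00091 by DESeq2). It was -2.22 without control mouse 2 (adjusted p = 0.00943 by edgeR) and -1.59 without aPU.1KO mouse 2 (adjusted p = 0.158), and the adjusted p was between 0.115 and 0.340 without any mouse but control mouse 2.

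Most macrophage markers moved with both genes: 13 of the 15 were lower in control mouse 2 than in the other controls, and 12 were lower in aPU.1KO mice at the limit given above. Relative to the summed macrophage markers, Ctsk was at 3.54 to 3.76 CPM per 100 marker CPM in the control mice and at 2.97 to 4.61 in the aPU.1KO mice, so that the groups overlapped. On the same scale Ctss was at 9.73 to 17.2 in control and at 3.42 to 10.8 in aPU.1KO mice, again with overlap. The other 8 members were higher per marker CPM in all aPU.1KO mice than in any control mouse, for example Ctsb at 174 to 393 against 613 to 660. Some fibroblast and progenitor markers had a like profile. Of 8, 4 were lower in control mouse 2 than in the other controls, and 6 were lower in aPU.1KO mice at an unadjusted p below 0.05 by edgeR (13.7% of all genes). Lum, for instance, was at 64.9, 18.4 and 75.1 CPM in control and at 11.9, 10.3 and 12.1 CPM in aPU.1KO mice. The parts of macrophage and fibroblast RNA in the difference of Ctss and Ctsk were not tested.

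**Figure D2:**
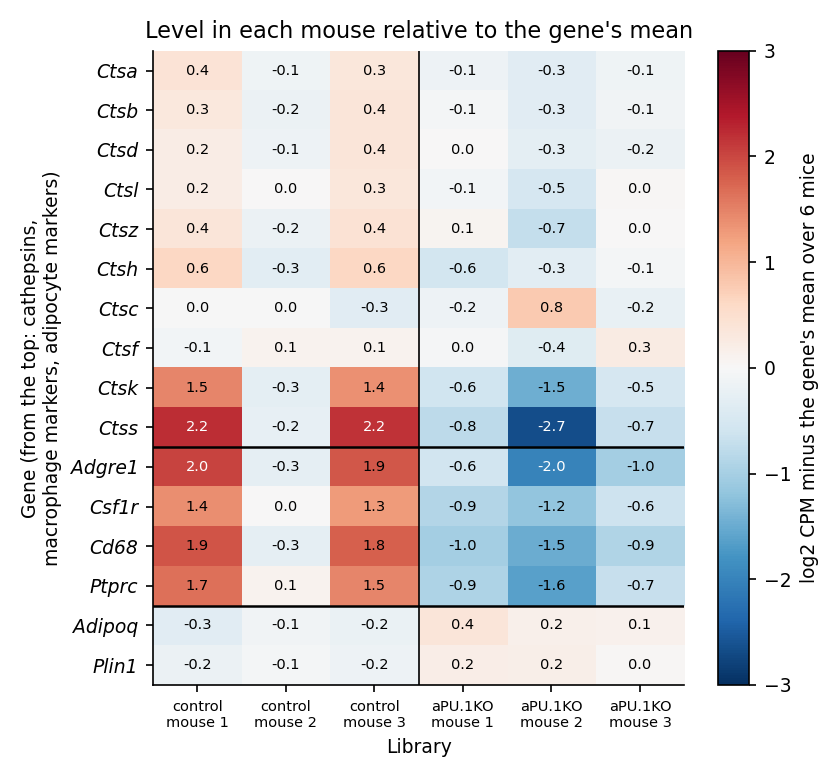
Level of each cathepsin, 4 macrophage markers and 2 adipocyte markers in each library, as log2 CPM minus the gene's mean over the 6 mice. Ctss and Ctsk follow these 4 macrophage markers, high in control mice 1 and 3, near or below the mean in control mouse 2 and low in aPU.1KO mice, and the other cathepsins vary much less.

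The genes with the profile nearest to that of Ctss over the 6 libraries were Cd300lb, an immune receptor of myeloid cells, Itgb2, the beta subunit of the leukocyte integrins, and Slc37a2, a sugar phosphate transporter. Likeness was measured as the root mean square difference of log2 CPM after centring each gene, which was 0.062 for Cd300lb, 0.092 for Itgb2 and 0.12 for Slc37a2. Itgb2, for instance, was at 139, 26.0 and 131 CPM in control and at 20.3, 5.02 and 18.3 CPM in aPU.1KO mice. No other cathepsin came as near to Ctss. Its nearest was Ctsk, at 0.68.

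Ctsb, Ctsd and Ctsl, the broadly expressed endopeptidases, held most of the cathepsin counts in all 6 libraries. Ctsb (chromosome 14, 63122462 to 63145923) was at 2896, 2076 and 2988 CPM in control and at 2234, 1847 and 2160.1 CPM in aPU.1KO mice. Ctsd (chromosome 7, 142375911 to 142388038) was at 2294, 1775 and 2532 CPM in control and at 1989.8, 1597 and 1746 CPM in aPU.1KO mice. Ctsl (chromosome 13, 64359337 to 64370890) was at 723, 625 and 792 CPM in control and at 586, 437 and 633 CPM in aPU.1KO mice. In all 3 genes the groups overlapped through control mouse 2, which was the lowest control. By edgeR the log2 fold changes were -0.35 for Ctsb (adjusted p = 0.260), -0.31 for Ctsd (adjusted p = 0.298) and -0.37 for Ctsl (adjusted p = 0.214). Without control mouse 2 the log2 fold changes were -0.51, -0.45 and -0.47 (edgeR adjusted p = 0.0869, 0.124 and 0.167), and without aPU.1KO mouse 2 they were -0.28, -0.24 and -0.23 (adjusted p = 0.408, 0.457 and 0.318). Ctsd was at -0.20 without control mouse 3 (adjusted p = 0.594). With all mice their 95% intervals reached from -0.77 to 0.067, from -0.71 to 0.093 and from -0.76 to 0.021, so that a fall larger than 0.77 on this scale lay outside all of them. Of the summed CPM of the 10 cathepsins, Ctsb made up 41.2% to 42.5%, Ctsd 33.4% to 37.3% and Ctsl 10.0% (aPU.1KO mouse 2) to 12.5% (control mouse 2) over the 6 mice, while Ctss went from 1.02% to 4.08% in control mice down to 0.220% to 0.742% in aPU.1KO mice.

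The members that trim protein ends showed small differences. Ctsa (chromosome 2, 164832873 to 164841032) was at 163, 114 and 155 CPM in control and at 112, 97.7 and 113 CPM in aPU.1KO mice, and the groups just failed to overlap. Its log2 fold change was -0.42 with a standard error of 0.15 (edgeR adjusted p = 0.136), and it was -0.58 without control mouse 2 (adjusted p = 0.0247 by edgeR) and -0.37 without aPU.1KO mouse 2, with an adjusted p of 0.170 to 0.448 without any mouse but control mouse 2. With Ctss and Ctsk it made 3 members whose groups did not overlap and that were lower in aPU.1KO, against 15.5% of all genes. The other 7 overlapped, and none was higher without overlap, against 16.7% of all genes. Ctsh (chromosome 9, 90054152 to 90076089), an aminopeptidase, was at 45.2, 23.6 and 45.7 CPM in control and at 19.97, 23.8 and 28.3 CPM in aPU.1KO mice. Control mouse 2 lay among the aPU.1KO mice for this gene, whose log2 fold change was -0.67 (adjusted p = 0.178 by edgeR) and -0.93 without that mouse (adjusted p = 0.0205). Without aPU.1KO mouse 2 it was -0.67, and without any mouse but control mouse 2 the adjusted p was 0.173 to 0.493. Ctsz (chromosome 2, 174427493 to 174439039), a carboxypeptidase, was at 242, 166 and 255 CPM in control and at 198, 115 and 189.7 CPM in aPU.1KO mice, with overlapping groups, a log2 fold change of -0.40 and an adjusted p of 0.347 by edgeR (-0.58 and 0.196 without control mouse 2, but -0.19 and 0.571 when aPU.1KO mouse 2 was left out).

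Ctsc and Ctsf stood apart from the rest in showing no lower level in control mouse 2. Ctsc (chromosome 7, 88278085 to 88310888) encodes a dipeptidyl peptidase that activates the granule proteases of neutrophils, mast cells and cytotoxic lymphocytes. It was at 97.2, 97.5 and 78.0 CPM in control and at 88.2, 169.6 and 84.0 CPM in aPU.1KO mice. Its difference of 0.33 on the log2 scale (standard error 0.28, edgeR adjusted p = 0.495) rested on aPU.1KO mouse 2 and was -0.08 without it. Leaving out control mouse 2 instead gave 0.37 (edgeR adjusted p = 0.522). The 3 genes nearest in profile to Ctsc, Sspo, Hoxa3 and Ripply3, were at 4.75 CPM or less in every library, with the same single high library. Ctsf (chromosome 19, 4855130 to 4860918), which can take over part of the work of Ctss on Cd74 in macrophages, was at 58.7, 66.5 and 66.4 CPM in control and at 60.4, 48.2 and 73.7 CPM in aPU.1KO mice, with a log2 fold change of -0.07 (95% interval from -0.44 to 0.30, adjusted p = 0.803 by edgeR) that was -0.05 without control mouse 2 (adjusted p = 0.893) and 0.069 without aPU.1KO mouse 2 (adjusted p = 0.734).

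**Figure D3:**
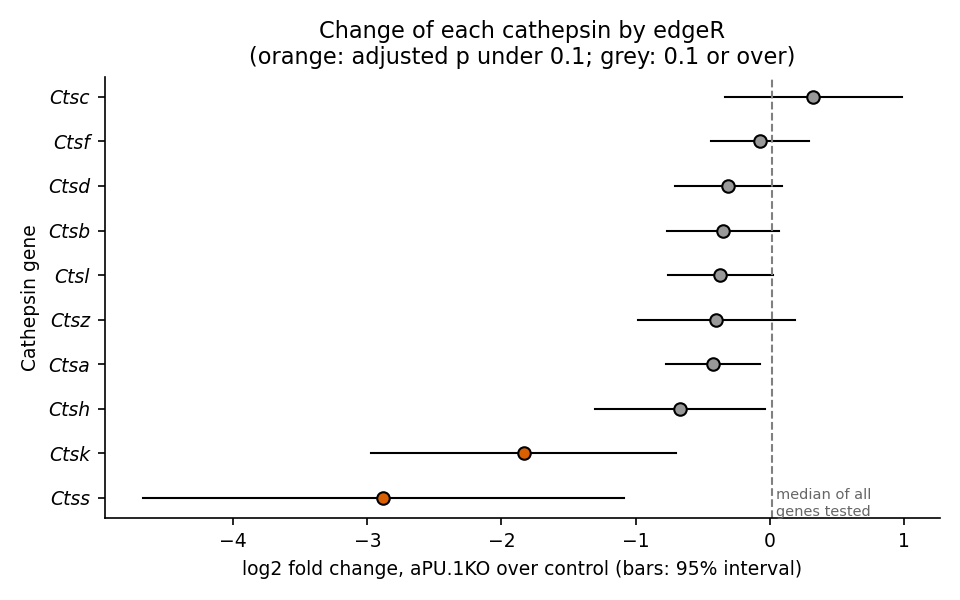
Log2 fold change (aPU.1KO over control) of each cathepsin by edgeR with its 95% interval, and a dashed line at the median of all genes tested. Ctss at -2.88 and Ctsk at -1.83 (orange, adjusted p under 0.1) lie left of the other 8 (grey), which run from -0.67 to 0.33.

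Compared with control mouse 2 alone, the mean of the aPU.1KO mice was 0.535 times as high for Ctss and 0.705 times for Ctsk. The other 8 members were between 0.883 and 1.17 times the level of that mouse. Control mouse 2 itself was at 0.185 times the mean of the other controls for Ctss and at 0.308 times for Ctsk.

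Ratios of 2 cathepsins within a library do not depend on how libraries were scaled. Of the 45 pairs, 17 had ratios that did not overlap between the groups, and every one of the 17 involved Ctss or Ctsk. The 9 pairs with Ctss and the 9 pairs with Ctsk all separated, including the pair of both genes, while 0 of the 28 pairs without them did. The log2 ratio of Ctsb to Ctss was 3.37, 5.34 and 3.44 in control and 5.99, 7.59 and 5.84 in aPU.1KO mice, a difference of 2.42. For Ctsb to Ctsk the ratios were 5.54, 6.80 and 5.66 against 7.205, 7.80 and 7.07, a difference of 1.36. Ctss was also lower relative to Ctsk, by a difference of 1.06 in their log2 ratio. In an exact two-sided permutation test over mice each of these pairs had p = 0.1, the smallest that 3 against 3 can give, and 0.265 after Benjamini-Hochberg adjustment over the 45 pairs. Without control mouse 2, 32 pairs did not overlap, but leaving out a mouse can only keep or raise this number. The share over pairs of all genes was not computed.

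**Figure D4:**
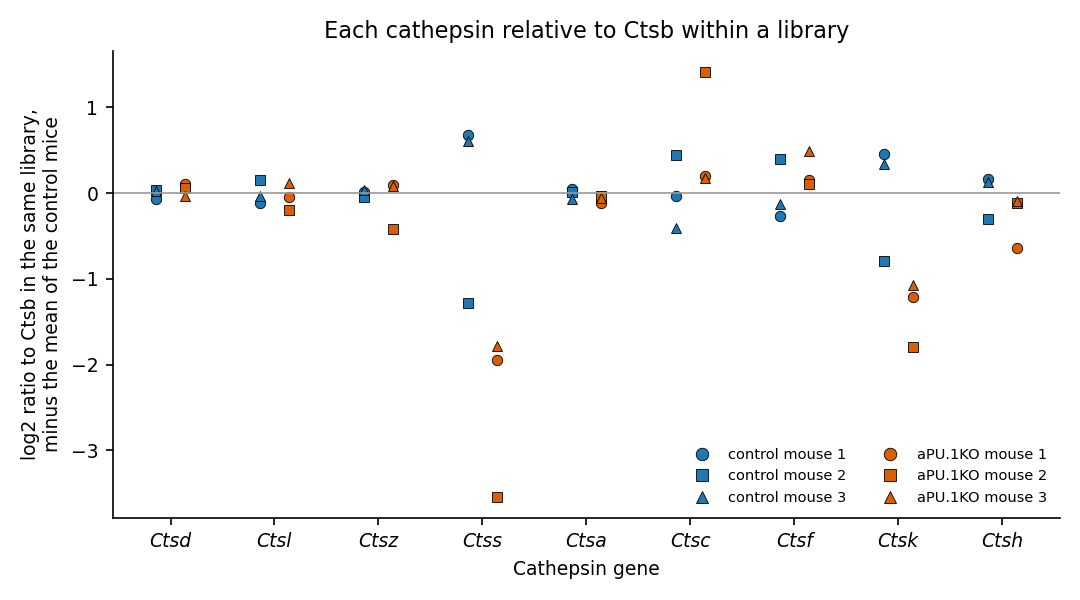
Log2 ratio of each cathepsin to Ctsb within each library, minus the mean of the control mice, with 1 point per mouse. Ctss and Ctsk are the only members of the 9 whose aPU.1KO points (orange) all lie below the control points (blue), and control mouse 2 (blue square) lies lowest among the controls for both.

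Per length, the aspartic protease Ctsd and Ctsb had the highest levels in both groups. With the longest protein-coding transcript as the length, the control means were 1034.5 ± 182 CPM per kb for Ctsd and 559 ± 106 CPM per kb for Ctsb (SD, n = 3). Next came Ctsz at 153 ± 33.2, Ctss at 149 ± 96.3 and Ctsl at 116 ± 13.6 CPM per kb, whose ranges overlapped one another. Ctsa, Ctsf, Ctsk, Ctsc and Ctsh followed, with control means from 39.5 down to 23.6 CPM per kb, and neighbours in that order overlapped. In aPU.1KO mice the means were 836 ± 93.2 CPM per kb for Ctsd and 439 ± 43.3 for Ctsb, Ctss was in the 8th place rather than the 4th at 20.3 ± 11.5, and Ctsk in the 10th rather than the 8th at 8.71 ± 2.80. Of neighbours in the aPU.1KO order, Ctsd and Ctsb, Ctsb and Ctsz, Ctsl and Ctsc, and Ctsh and Ctsk did not overlap, and the other neighbours did. The order between genes depends on the length used. With the median length of the protein-coding transcripts, Ctsl had a control mean of 856 CPM per kb in place of 116 and so passed Ctsb at 559, Ctsa had 150.04 in place of 39.5 and Ctsf 138.8 in place of 32.3, while Ctsd, at 1087, was still the highest. These median lengths, 834, 961 and 460 bases for Ctsl, Ctsa and Ctsf, are shorter than their longest coding stretches of 1002, 1476 and 1386 bases. They do not hold a full coding sequence, while the longest Ctsl transcript has 6168 bases. With the union of all exons Ctsf was at 12.7, Ctsc at 15.6 in place of 28.2 and Ctsh at 8.48 in place of 23.6, which also changes the order of the lower members.

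Some members share sequence with neighbours, and their counts are less certain for it. Ctsa shares 19.3% of the 31-base runs of its longest transcript with other genes, mostly with Pltp, the phospholipid transfer protein gene on the opposite strand, which was itself at 301, 126 and 364 CPM in control and at 129, 56.3 and 110.3 CPM in aPU.1KO mice. Ctsb shares 16.6%, mostly with Fdft1 on the opposite strand, and Fdft1 was higher in aPU.1KO mice (log2 fold change 0.69, adjusted p = 0.0783 by edgeR). For Ctsd the share was 37.1%, all with the overlapping gene Gm49369, and for Ctsl it was 29.9%, mostly with the antisense gene Gm47123, which was not analysed here. Whether the libraries and their counting kept the strand is not given in the sources used here. For Ctsc and Ctsh the share was at most 2.14%, and for Ctsf, Ctsk, Ctss and Ctsz it was 0%.

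The promoters are shown where they hold one of 2 motifs, the PU.1 core GAGGAAG and the E-box CACGTGAC bound by Tfeb, the regulator of lysosomal genes. Both strands of RefSeq promoters (GRCm38.p6, 250 bases before to 50 after the start) were searched, and 8 of the 10 members had an entry (Ctsb and Ctsh had none). The motif stands in capitals on the strand of the gene, 5′ to 3′, and reads as its reverse complement (CTTCCTC or GTCACGTG) where it lies on the other strand.
Ctss, PU.1 core, chr3:95526774-95526802 (+): atgaaagttcaCTTCCTCattgtggatgc
Ctsk, PU.1 core, chr3:95498966-95498994 (+): tcagacattttGAGGAAGaatggagacaa
Ctsk, PU.1 core, chr3:95499140-95499168 (+): aaatgtgtgtcCTTCCTCcctaacccctc
Ctsc, PU.1 core, chr7:88277877-88277905 (+): ccactttccttCTTCCTCctagtggtgcc
Ctsc, PU.1 core, chr7:88277924-88277952 (+): tcactaactaaCTTCCTCaggccacctcg
Ctsa, E-box, chr2:164833748-164833777 (+): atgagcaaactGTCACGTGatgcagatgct
Ctsa, E-box, chr2:164833767-164833796 (+): atgcagatgctCACGTGACcagagctacac
Ctsd, E-box, chr7:142387907-142387936 (-): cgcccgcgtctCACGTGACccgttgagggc
Ctsd, E-box, chr7:142388054-142388077 (-): tccccCACGTGACctgtatccagt
The PU.1 core occurred in the promoters of Ctsk, Ctss and Ctsc and in 13.6% of 32851 promoters, and the E-box in those of Ctsa and Ctsd and in 2.25% of them. The windows of Ctss and Ctsa and the first of Ctsd overlap an annotated exon, and the others lie outside exons. No member held both motifs, so no match of one overlapped the other. Both motifs were chosen after the sequences had been seen, and a match describes letters in these windows, not binding. The 3 genes with the PU.1 core include the 2 most lowered members and Ctsc, whose level overlapped between the groups.

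Among the other genes of the pathway, most tested genes of each list but that of other cathepsins had a log2 fold change below 0, while fewer passed an adjusted p of 0.1 by edgeR than did not. Of 13 other cathepsin genes only Ctso passed the filter, with a log2 fold change of 0.19 (adjusted p = 0.243 by edgeR), and 8 of the 13 had no count in any library, which allows up to 0.0433 CPM in the deepest library and 0.146 CPM in the shallowest (3 counts, counting error only). Of the 11 genes of cathepsin maturation and sorting, 3 were lower at an unadjusted p below 0.05 by edgeR (13.7% of all genes). DESeq2 called 2 lower with the adjusted p below 0.05 (7.48%). By edgeR with the adjusted p below 0.1, 1 was lower and 0 higher, against 6.15% of all genes lower. That gene was Lgmn, legumain, an asparaginyl endopeptidase that cuts cathepsin precursors, with 144, 47.3 and 141 CPM in control and 33.9, 21.8 and 40.2 CPM in aPU.1KO mice (log2 fold change -1.80, adjusted p = 0.0856 by edgeR, 0.00757 without control mouse 2 and 0.102 to 0.326 without any other mouse). Sort1, the sorting receptor sortilin and the most abundant gene of that list, had a log2 fold change of 0.28 (adjusted p = 0.255), and Scarb2 and Nagpa had -0.35 and -0.51 (adjusted p = 0.148 and 0.195 by edgeR, and 0.0425 and 0.102 without control mouse 2). Without any other mouse that of Scarb2 was 0.177 to 0.440.

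None of the 7 cathepsin inhibitors tested passed an adjusted p of 0.1 by edgeR, while 2 had an unadjusted p below 0.05, both lower (13.7% of all genes), and DESeq2 called 0 with the adjusted p below 0.05 (7.48% of all genes lower). Cst3, cystatin C, a secreted inhibitor of cysteine cathepsins, was at 451, 434 and 493 CPM in control and at 445, 425 and 448 CPM in aPU.1KO mice, a log2 fold change of -0.06 (adjusted p = 0.677 by edgeR). Cstb, the intracellular cystatin B, was at 90.4, 53.8 and 111 CPM against 57.9, 47.6 and 56.6 CPM, with overlap through control mouse 2 (log2 fold change -0.66, adjusted p = 0.164 by edgeR). Without that mouse the log2 fold change of Cstb was -0.91 (adjusted p = 0.0164 by edgeR), and its adjusted p was 0.217 to 0.442 without any other mouse. Kng1 and Serpina3g were at 2.14 CPM or less in every library.

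Among 37 other hydrolases and their activators, 5 were lower and 0 higher by edgeR with the adjusted p below 0.1, against 6.15% of all genes lower, and the median log2 fold change was -0.19. At an unadjusted p below 0.05, 11 were lower (13.7% of all genes), and DESeq2 called 8 lower with the adjusted p below 0.05 (7.48%). Without overlap between the groups, 9 were lower (15.5%) and 1 higher (16.7%). The largest differences on this list were those of Lgmn and of Lipa, the lysosomal acid lipase, which was at 292, 106 and 270.2 CPM in control and at 97.4, 64.2 and 89.3 CPM in aPU.1KO mice (log2 fold change -1.41, adjusted p = 0.0942, 0.00659 without control mouse 2 and 0.131 to 0.348 without any other mouse). Neu1, the partner of Ctsa, had a log2 fold change of 0.009 (adjusted p = 0.966 by edgeR) whose sign turned with library scaling, and the abundant cholesterol carrier Npc2 one of -0.12 (adjusted p = 0.737). Of 30 genes of the lysosomal membrane and its proton pump, 3 were lower and 0 higher by the edgeR limit of 0.1 (6.15% of all genes lower), with a median of -0.061. Unadjusted, 8 were lower at p below 0.05 (13.7%), and DESeq2 called 5 lower (7.48%). Without overlap between the groups, 7 were lower (15.5%) and 3 higher (16.7%). The 3 lower by the edgeR limit were Laptm5, a lysosomal protein of blood cells, at -2.53 (adjusted p = 0.0764 by edgeR), the metal transporter Slc11a1 at -2.34 (adjusted p = 0.0783) and the pump subunit Tcirg1 at -1.71 (adjusted p = 0.0980). That of Laptm5 was 0.00278 without control mouse 2 and up to 0.313 without another mouse. Atp6v0d2, a pump subunit of osteoclasts and macrophages, had the lowest fold change of the list, -3.30, and did not pass (adjusted p = 0.102 by edgeR, 0.0314 without control mouse 2 and 0.130 to 0.354 without any other mouse). Lamp1 and Laptm4a, the most abundant of that list, had log2 fold changes of -0.07 and 0.04 (adjusted p = 0.790 and 0.785 by edgeR).

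Of 8 regulators of lysosomal genes tested, 3 were lower at an unadjusted p below 0.05 by edgeR (13.7% of all genes). DESeq2 called 2 lower with the adjusted p below 0.05 (7.48%). By edgeR with the adjusted p below 0.1, 1 was lower, against 6.15% of all genes. This was Tfec, a relative of Tfeb found in macrophages, at 2.06 CPM or less in every library, with a log2 fold change of -2.52 (adjusted p = 0.0892). Its adjusted p by edgeR was 0.00943 without control mouse 2 and up to 0.198 without another mouse. Tfeb itself had a log2 fold change of -0.29 (adjusted p = 0.263 by edgeR), Fnip2 one of -0.85 (adjusted p = 0.110, 0.00700 without control mouse 2 and 0.133 to 0.395 without any other mouse), and Fnip1 and Zkscan3 0.11 and 0.20 (adjusted p = 0.512 and 0.300).

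Among 10 substrates of cathepsins, 4 were lower and 0 higher by edgeR with the adjusted p below 0.1, against 6.15% of all genes lower, and the median log2 fold change was -0.76. Grn and Psap are also on the list of hydrolases and activators, and Grn (adjusted p = 0.0992 by edgeR) is counted as lower on both lists. At an unadjusted p below 0.05 by edgeR 7 of the 10 were lower (13.7% of all genes), 7 were lower with no overlap between the groups (15.5%), and DESeq2 called 6 lower with the adjusted p below 0.05 (7.48%). Fibroblast and progenitor markers, 2 of which (Col1a1 and Dcn) are also on the substrate list, were lower as well, 6 of 8 at an unadjusted p below 0.05 by edgeR with a median log2 fold change of -0.95, and their part in these counts was not tested. Cd74, the invariant chain that cathepsin S cleaves, was at 322, 139 and 323 CPM in control and at 77.4, 69.0 and 109 CPM in aPU.1KO mice (log2 fold change -1.62, adjusted p = 0.0775 by edgeR). Fn1, fibronectin, was at 183, 137 and 102 CPM against 44.4, 36.5 and 50.3 CPM (log2 fold change -1.69, adjusted p = 0.0627 by edgeR), and here control mouse 2 was not the lowest control. Psap, prosaposin, and Col1a2, a collagen chain, had log2 fold changes of -0.68 and -0.70 (adjusted p = 0.115 and 0.178 by edgeR), and neither overlapped between the groups. Without control mouse 2, the adjusted p by edgeR was 0.00632 for Cd74, 0.0166 for Fn1, 0.0271 for Psap and 0.221 for Col1a2. Without any other mouse it was 0.0831 to 0.313 for Cd74, 0.0781 to 0.189 for Fn1 and 0.140 to 0.408 for Psap, and the calls of Cd74 and Fn1 at 0.1 were lost without control mouse 1, control mouse 3 or aPU.1KO mouse 1, and that of Cd74 also without aPU.1KO mouse 2. Cd74 was lower together with its protease, whose levels are given above, and most macrophage markers moved with both. The part of macrophage RNA in this was not tested.

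**Figure D5:**
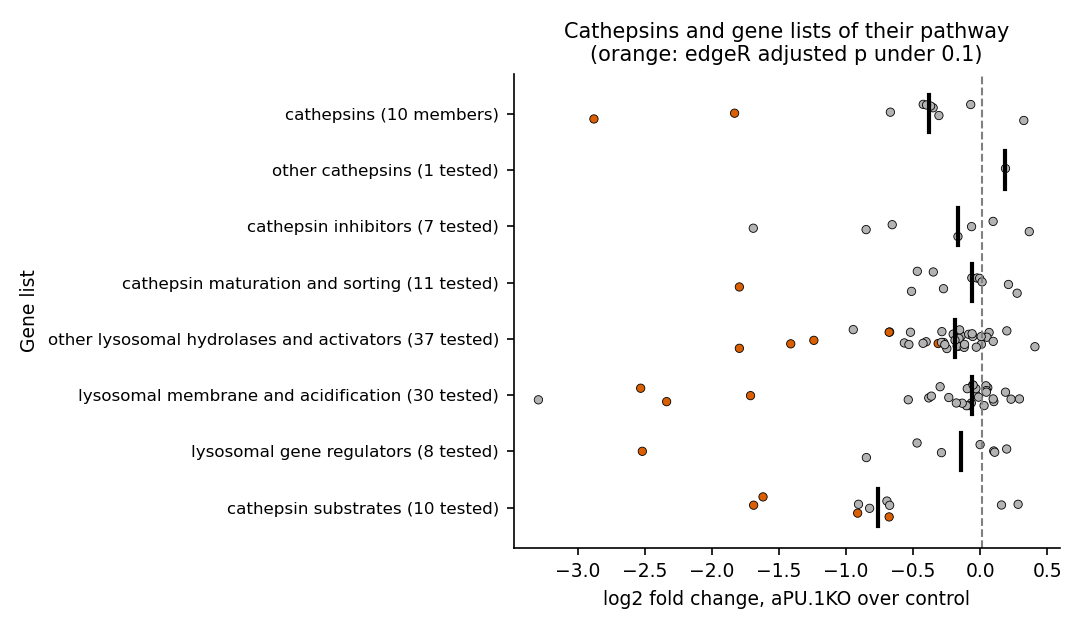
Log2 fold change (aPU.1KO over control) of each tested gene of the cathepsins and of 7 lists of their pathway, 1 point per gene, with a black bar at each median, a dashed line at the median of all genes and orange for an edgeR adjusted p under 0.1. The median of the cathepsins lies at -0.39 and that of their substrates at -0.76, while in the lists of inhibitors, sorting genes, hydrolases, membrane genes and regulators it lies between -0.19 and -0.061. Lgmn, Grn and Psap are on more than 1 list and are drawn in each.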

How the data were processed

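The authors quantified reads with Salmon (option validateMappings) and deposited estimated counts per gene, summed from transcripts. These are whole numbers with no normalization. The submitters' processing notes name GRCm38; the Salmon version and annotation are not given in the sources used here. Symbols came from GENCODE M21 and the reference tables, which matched 35102 of 35122 genes; the rest held 0.00188% of counts. All coordinates are GRCm38. Groups came from the genotype labels. No libraries were duplicates (chi-square per degree of freedom 19.0 to 89.7 within groups).

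Counts were compared with edgeR 4.0.16 in R 4.3.3 (filterByExpr, TMM factors, glmQLFit, glmQLFTest, no covariate, Benjamini-Hochberg over 13925 genes), tested first on simulated data. Standard errors come from the coefficient and F statistic. DESeq2 1.42.0 and limma 3.58.1 were alternatives, with other scalings, filters and dispersion options and each mouse left out. The union of exons replaced the longest protein-coding transcript as a gene's length, and the median transcript length was added after seeing the data. Centred log2 CPM used a prior count of 2. Figures were drawn with matplotlib 3.10.9.

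Named genes are the 10 members, Spi1, Neu1, Lgmn, Cst3, Cstb, Cd74, Tfeb, the 2 genes of each pathway list with the largest absolute fold change and the 2 with the highest level, the 3 nearest in profile to the members with the largest fall and rise, and the defining macrophage and adipocyte markers. Genes overlapping a member, Cd163, Mertk, Slc11a1, Tcirg1, Trem2, Lep, Lpl, Fabp5, Lum, Grn and Alb were named after their values were seen. The members and lists were chosen with earlier results of these data known, so none is independent evidence. One sequence is not reported here.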

Additional observations from a re-analysis of the deposited data

How the results depend on the processing

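With 3 mice per group and 1 library in each group apart from the others, the calls depended on the test and on single mice more than the directions did. Genes called at an adjusted p under 0.05 numbered 33 by edgeR, 5 with at least 10 counts in every library, 146 with no filter, 1833 by DESeq2, and 0 to 1193 with 1 mouse left out, with the highest count when control mouse 2 was dropped. With the limit at 0.1 there were 1287 by edgeR, 2617 by DESeq2, 533 by limma-voom and 5 to 2163 with 1 mouse left out. Cathepsins called at an adjusted p under 0.05 numbered 0 by edgeR (4 at an unadjusted p under 0.05), 2 by DESeq2 and 0 to 4 with 1 mouse left out. At an adjusted p under 0.1 there were 2 by edgeR, 4 by DESeq2, 0 by limma-voom and 0 to 5 with 1 mouse left out. The pairs of cathepsins whose ratios did not overlap numbered 17 to 32 with 1 mouse left out. Leaving out a mouse cannot bring this number below the 17 of all mice, so the lower end says nothing about stability. The median log2 fold change of the cathepsins stayed between -0.54 and -0.26 over all settings. Of 150 refits of single members, 142 kept direction and side of the adjusted p of 0.05, 6 passed it newly (Ctsa, Ctsh, Ctsk and Ctss) and 2 turned sign. With 1 mouse left out, log2 fold changes ran from -0.082 to 0.51 for Ctsc, -0.23 to 0.069 for Ctsf, -0.090 to 0.078 for Neu1, -0.24 to 0.044 for Npc2, -0.18 to 0.023 for Lamp1, -0.012 to 0.080 for Laptm4a, -0.080 to 0.52 for Sspo, -0.20 to 0.43 for Hoxa3 and -0.073 to 0.55 for Ripply3. Neu1 was also at -0.0046 with RLE factors, -0.12 with library totals alone, -0.014 with at least 10 counts in every library, -0.010 with no filter and -0.0043 by DESeq2. Library totals alone moved the median of all genes by -0.12, and with them Laptm4a was at -0.080 and Fnip1 at -0.012. The cause of these changes was not tested. No paired analysis was possible because the labels give each mouse a number of its own and none is shared between the groups. The study describes its controls as littermates, but no source used here says which of the sequenced mice shared a litter.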

Other observations

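Markers of other cell types gave these values in the same libraries. Of 8 genes of lipid-associated macrophages, 1 was lower by edgeR with the adjusted p below 0.1 (6.15% of all genes) and 4 by DESeq2 with it below 0.05 (7.48%). Trem2, a lipid receptor of those cells, was at 66.5, 8.93 and 74.1 CPM in control and at 6.91, 1.58 and 7.44 CPM in aPU.1KO mice. Lpl and Fabp5 of that list, which adipocytes also express, had log2 fold changes of 0.33 and 0.065, and Lpl was higher in aPU.1KO mice without overlap. Of 8 fibroblast and progenitor markers, 4 were lower at an adjusted p under 0.1 (6.15% of all genes; median log2 fold change -0.95). Of 10 adipocyte markers 0 passed that limit by edgeR, against 9.24% of all genes in either direction. Without overlap between the groups, 8 were higher in aPU.1KO mice (16.7% of all genes) and 1 lower (15.5%). The lower one was Lep, leptin, at 4551 to 5029 CPM in control and 1565 to 3949 CPM in aPU.1KO mice (log2 fold change -0.77). None of 6 endothelial, 5 mesothelial, 3 lymphocyte, 4 neutrophil or mast cell and 1 epididymal markers tested passed an adjusted p of 0.1 by edgeR, with 1, 0, 0, 4 and 0 lower at an unadjusted p under 0.05 (13.7%), and 0, 0, 0, 1 and 0 by DESeq2 at an adjusted p under 0.05 (7.48%). All 6 hepatocyte markers were lower by edgeR with the adjusted p below 0.1 (6.15% of all genes). Their summed level was 40.8, 57.2 and 33.9 CPM in control and 19.4, 22.2 and 16.2 CPM in aPU.1KO mice, with control mouse 2 the highest. Most of that sum was Alb, with a log2 fold change of -0.86, while the median of the 6 was -4.80. The others were at 4.38 CPM or less in every library.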
